A study of Mus musculus with 14 samples.

Results

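Macrophage and myeloid transcripts were examined in material captured as red cell precursors from the mouse yolk sac. The 10 genes were Laptm5, Tyrobp, Fcer1g, Cybb, C1qa, C1qb, C1qc, Csf1r, Ptprc and Spi1, of 12393 genes on the array. Every probe set whose platform symbol was one of these genes was used, which gave 16 of the 22626 probe sets that are not controls. A probe set is a group of short probes for 1 transcript. Laptm5, C1qb and Csf1r had 3 probe sets each, the other 7 genes had 1 each, and 0 probe sets paired a member with another gene.

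The study compared primitive erythroid precursors, laser-captured from frozen yolk sac sections at embryonic day 9.5, in 3 genotypes, all labelled as strain FVB/N. There were 8 arrays of wild type, 3 of KLF1-/- embryos and 3 labelled KLF1-/- KLF2-/-. Each array held RNA of 1 pool of yolk sacs from more than 1 litter. The labels leave unsaid whether pools had a litter in common, so p-values measure the spread between these pools. KLF1 and KLF2 are Krüppel-like transcription factors: KLF1 drives globin and other red cell genes, and KLF2 is known in endothelium and in primitive erythroid cells.

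Tissue macrophages first arise in the yolk sac, beside the primitive erythroid cells, and engulf the nuclei and debris of red cells. Spi1 encodes PU.1, the transcription factor that sets the myeloid programme and is known to oppose the erythroid factor GATA1. Its targets include Csf1r, the receptor through which CSF1 keeps macrophages alive. Tyrobp (DAP12) and Fcer1g (the Fc receptor gamma chain) are small adaptor proteins that pass signals from activating receptors to the kinase SYK, C1qa, C1qb and C1qc encode the chains of the complement recognition protein C1q, and Cybb encodes the catalytic subunit of the phagocyte NADPH oxidase.

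Promoter sequences are shown for 3 members, because Laptm5 and C1qb held the largest differences between genotypes and because C1qb and C1qc are listed close together on chromosome 4. They are RefSeq sequence of GRCm38.p6, 250 bases ending before the transcript start, 5′ to 3′ on the gene's strand. Capitals mark matches on either strand to CCNCNCCC (read as GGGNGNGG from the opposite strand), a letter string of the kind KLF proteins bind. They also mark GAGGAA (read as TTCCTC from the opposite strand), a letter string of the kind PU.1, an ETS protein, binds. Other strings that ETS proteins bind were not searched.

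Laptm5, chr4:130913066-130913315, plus strand: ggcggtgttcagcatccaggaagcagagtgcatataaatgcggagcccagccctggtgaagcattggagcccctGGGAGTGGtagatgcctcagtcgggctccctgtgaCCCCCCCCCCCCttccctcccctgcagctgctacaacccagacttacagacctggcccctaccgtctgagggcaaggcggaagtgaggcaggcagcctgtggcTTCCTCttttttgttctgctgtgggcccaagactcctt

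C1qb, chr4:136886201-136886450, minus strand: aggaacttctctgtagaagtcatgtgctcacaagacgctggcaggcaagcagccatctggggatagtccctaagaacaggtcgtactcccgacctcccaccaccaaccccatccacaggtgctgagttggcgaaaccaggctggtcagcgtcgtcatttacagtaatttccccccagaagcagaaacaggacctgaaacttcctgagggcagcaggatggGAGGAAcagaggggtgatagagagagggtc

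C1qc, chr4:136892915-136893164, minus strand: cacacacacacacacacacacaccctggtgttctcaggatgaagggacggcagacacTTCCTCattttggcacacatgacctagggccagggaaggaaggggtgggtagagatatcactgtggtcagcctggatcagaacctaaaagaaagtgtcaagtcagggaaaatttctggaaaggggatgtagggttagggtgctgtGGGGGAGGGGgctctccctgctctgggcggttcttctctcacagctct

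The Laptm5 window held 6 matches to the KLF string, 5 of them overlapping in 1 run of C, and 1 match to GAGGAA at 38 bases before the start. C1qb had 0 matches to the KLF string and 1 to GAGGAA at 30 bases, and C1qc had 2 overlapping matches to the KLF string at 48 and 46 bases and 1 to GAGGAA at 193. In all, 7 windows of 6 members were in the RefSeq table: 2 held the KLF string and 4 held GAGGAA. Of 32851 promoters of the same length, 45.9% held the KLF string and 23.3% held GAGGAA. These are matches of letters in a short window, not measured binding sites.

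The targeted genes were read first as a check of the labels. Klf1 was at 10.67 ± 0.63 (log2, SD, n = 8) in wild type, 9.45 ± 0.39 (n = 3) in KLF1-/- and 9.15 ± 0.53 (n = 3) on the arrays labelled KLF1-/- KLF2-/-. Every mutant array lay below every wild-type array. The log2 differences from wild type were −1.22 and −1.52 (SE 0.35 for both, limma adjusted p = 0.9998 and 0.525). Klf1 was thus itself not called at an adjusted p under 0.05. Klf2 ran from 5.90 to 6.59 in wild type, with a median of 6.30, and from 5.99 to 6.53 in KLF1-/-. On the arrays labelled KLF1-/- KLF2-/- it was 6.72, 7.003 and 6.36, so Klf2 signal was not lower where the label says the gene was lost (log2 difference 0.44, SE 0.18, limma adjusted p = 0.9999). The sources used here do not say whether these probes lie in the deleted part. Array titles run from 1 to 8 (wild type 1 to 4 and KLF1-/- 5, 6 and 8) and from 9 to 15 (wild type 9 to 12 and the arrays labelled KLF1-/- KLF2-/- 13 to 15), and no label says if the 2 runs of numbers were processed apart. Array medians ranged from 6.55 to 6.66 and interquartile ranges from 2.31 to 3.12 on the log2 scale, the widest on KLF1-/- 6.

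As red cell material, the arrays were bright for embryonic globins: wild-type means were 14.42 ± 0.11 for Hbb-y, 14.49 ± 0.20 for Hbb-bh1 and 12.74 ± 0.55 for Hba-x. Other yolk sac cell types were also bright, with wild-type means of 13.62 ± 0.25 for Afp of the visceral endoderm, 11.98 ± 0.50 for Col3a1 of mesenchyme and 11.21 ± 0.37 for Pf4 of megakaryocytes. Most member probe sets were dim. The wild-type means of 13 of 16 lay inside the range, 4.08 to 7.65, of 13 genes of other organs such as Ins2 (insulin) and Prm1 (a sperm protamine), and 3 lay above it. Those 3 were Laptm5 1436905_x_at and Csf1r 1419872_at and 1423593_a_at. A probe set's brightness also depends on its probes, so this compares ranges and ranks no transcript. In pooled captured tissue, fewer cells of a type and less RNA per cell cannot be told apart.

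**Figure D1:**
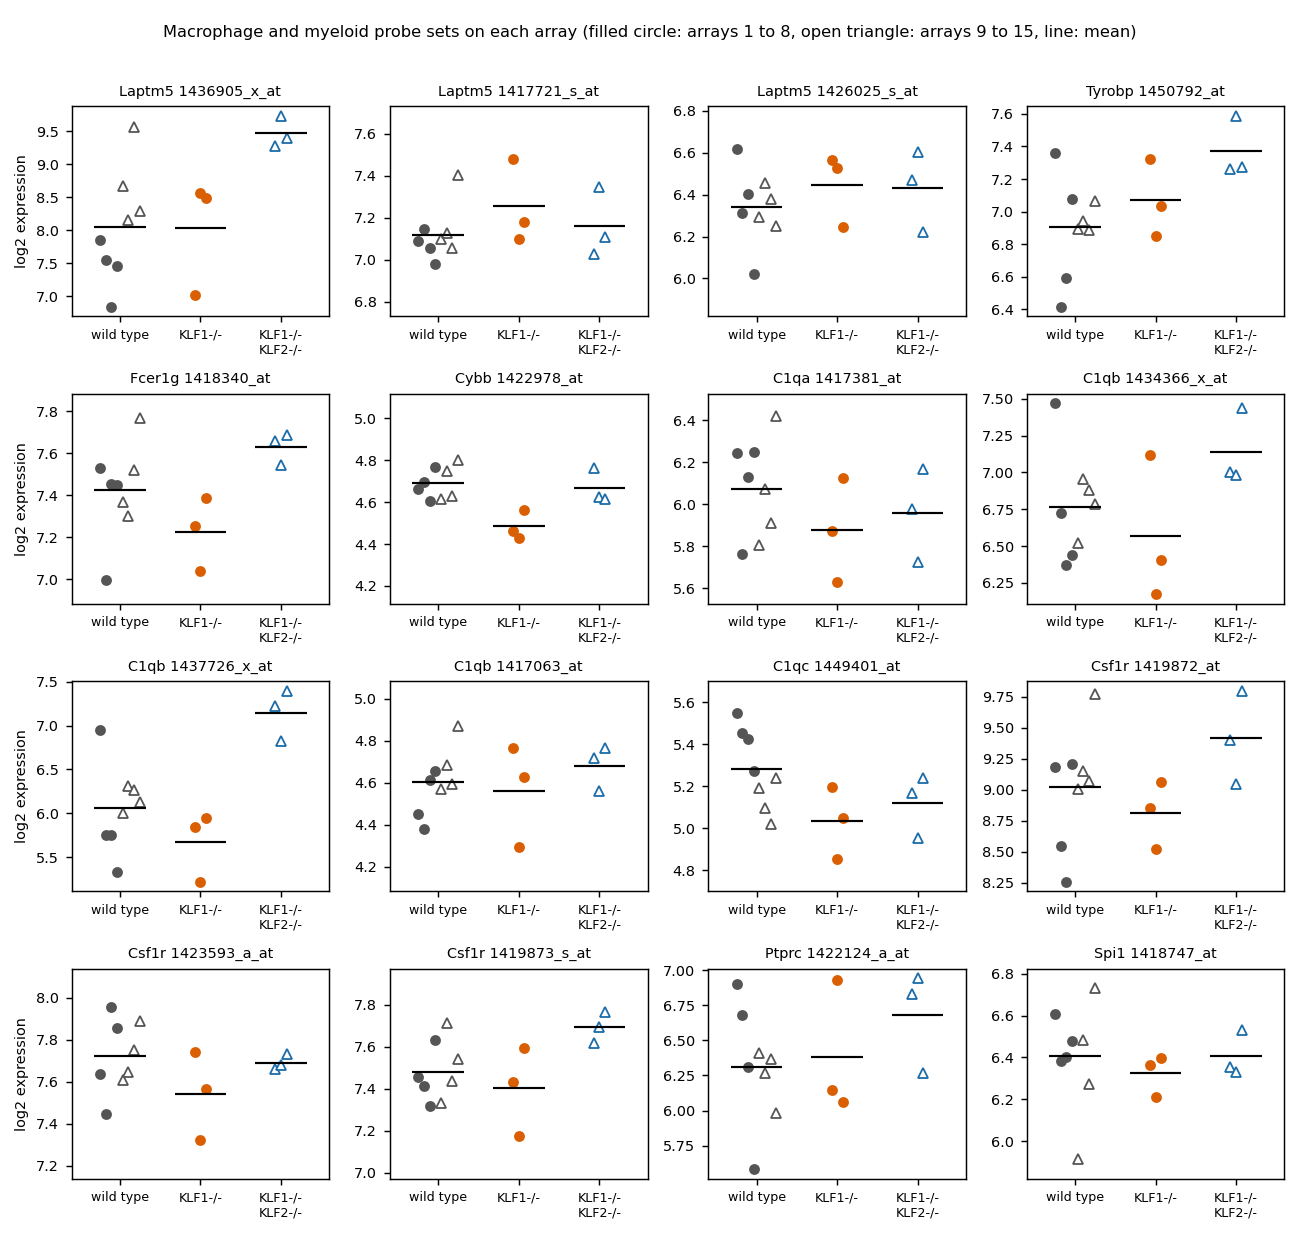
Log2 expression (vertical axis) of each member probe set on each of the 14 arrays, by genotype; points are arrays and bars are group means. Laptm5 1436905_x_at and C1qb 1437726_x_at are highest on the arrays labelled KLF1-/- KLF2-/-, with means of 9.47 and 7.15, and 1 wild-type array on each lies above the lowest of those arrays.

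No member probe set passed the test in any comparison of genotypes (limma, adjusted p under 0.05 over all 22626 probe sets). Between KLF1-/- and wild type 0 of 16 were called, against 0.0265% of all probe sets (6, all lower). Between the arrays labelled KLF1-/- KLF2-/- and wild type 0 of 16 were called, against 0.0221% (5 probe sets, 1 higher and 4 lower), and between the mutant groups 0 of 16, against 0%. At an unadjusted p under 0.05 the members numbered 1 of 16 in KLF1-/- (1.92% of all probe sets), 3 of 16 in the arrays labelled KLF1-/- KLF2-/- (2.11%) and 3 of 16 between the mutant groups (0.628%). The smallest limma adjusted p of a member was 0.9998, 0.634 and 1 in these 3 comparisons. Both comparisons with wild type use the same 8 control arrays.

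Most member probe sets read slightly lower in KLF1-/- than in wild type and slightly higher on the arrays labelled KLF1-/- KLF2-/-. Each median kept its sign in every alternative run, but its size varied with the fit, the arrays and the probe sets used. Direction held in every alternative for 10 of 16 probe sets in the first comparison and 13 of 16 in the second. In KLF1-/-, 4 of 16 differences were above 0 (51.9% of all probe sets were), with a median of −0.13 against 0.01 for all. With a block for the number run 7 of 16 were above 0, with a median of −0.09, and without KLF1-/- 6 the median was −0.07. On the arrays labelled KLF1-/- KLF2-/-, 11 of 16 were above 0 (51.7% of all), with a median of 0.15 against 0.00. By the brightest probe set of each gene, 2 of 10 genes were above 0 in KLF1-/- and 6 of 10 on the double-labelled arrays. Between the mutant groups 14 of 16 were above 0 (49.8% of all), with a median of 0.24 against 0.00, or 0.17 without KLF1-/- 6. The mutant groups lie in different number runs, so here the block separates genotype from run only through the wild-type arrays of each run. With the block 13 of 16 were above 0 between the mutant groups, with a median of 0.20 against 0.02 for all. Against wild type the double-labelled arrays then had 11 of 16 above 0, with a median of 0.11 against 0.02. Between the wild-type runs (9 to 12 minus 1 to 4) 12 of 16 members were above 0, against 47% of all probe sets. The members' median there was 0.04. Over the 13 probe sets not marked _x_at, a subset taken after the values were seen, the medians were −0.08, 0.08 and 0.15, with 4, 8 and 11 above 0. The mark _x_at means that some probes may also bind other transcripts.

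C1qb, the B chain of C1q, had the clearest single difference. On probe set 1437726_x_at the arrays labelled KLF1-/- KLF2-/- read 7.22, 6.82 and 7.40, the KLF1-/- arrays 5.84, 5.22 and 5.95, and wild type from 5.33 to 6.95 with a median of 6.06. Each array with the double label was above all KLF1-/- arrays and above wild type 9 to 12, which ranged from 5.997 to 6.31, but wild type 1, at 6.95, was above the lowest of them. The log2 difference from wild type was 1.09 (SE 0.27, 95% interval 0.50 to 1.67, unadjusted p = 0.00132, limma adjusted p = 0.634), with all 3 arrays above the wild-type mean. Within the arrays numbered 9 to 15 alone it was 0.97 (SE 0.16, limma adjusted p = 0.372), and leaving out 1 array at a time it ran from 0.96 to 1.25. From KLF1-/- the difference was 1.48 (SE 0.33, unadjusted p = 0.000491, limma adjusted p = 1).

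The other C1qb probe sets had smaller differences, 1 of them in the same direction on every array of its number run. On 1434366_x_at the arrays labelled KLF1-/- KLF2-/- read 7.004, 6.98 and 7.44, the KLF1-/- arrays 7.12, 6.17 and 6.40, and wild type from 6.37 to 7.47 with a median of 6.75. All double-labelled arrays were above wild type 9 to 12 (6.52 to 6.96), while wild type 1, at 7.47, was above them. The log2 difference from wild type was 0.37 (95% interval −0.12 to 0.87), within the arrays numbered 9 to 15 it was 0.36 (SE 0.16), and from KLF1-/- it was 0.58 (SE 0.28, unadjusted p = 0.0584). On 1417063_at, the dimmest of the 3, the double-labelled arrays read 4.72, 4.56 and 4.77 within the wild-type range of 4.38 to 4.87, a difference of 0.08 (95% interval −0.18 to 0.34). After each genotype's mean was removed, the pair of _x_at probe sets had r = 0.81 over the 14 arrays, and 1417063_at had r = 0.23 and 0.21 with them. Points of such correlations share arrays and their normalization.

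The other C1q chains had small differences. C1qa, the A chain, read 5.98, 5.72 and 6.17 on the arrays labelled KLF1-/- KLF2-/-, 5.87, 5.63 and 6.13 in KLF1-/-, and 5.76 to 6.42 in wild type with a median of 6.10. All groups overlapped, with log2 differences from wild type of −0.12 (SE 0.16) and −0.20 (SE 0.16). C1qc, the C chain, read 5.20, 4.85 and 5.05 in KLF1-/-, 5.17, 4.95 and 5.24 on the double-labelled arrays, and 5.02 to 5.55 in wild type with a median of 5.26. The wild-type arrays themselves separated on C1qc, with 5.42 ± 0.11 (n = 4) for numbers 1 to 4 and 5.14 ± 0.10 (n = 4) for numbers 9 to 12. The KLF1-/- difference was −0.25 (SE 0.13, unadjusted p = 0.0703) and became −0.39 with a block for the number run (unadjusted p = 0.00621), and both limma adjusted p were 1. With the block the difference of the double-labelled arrays from wild type was −0.02, against −0.16 without it.

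**Figure D2:**
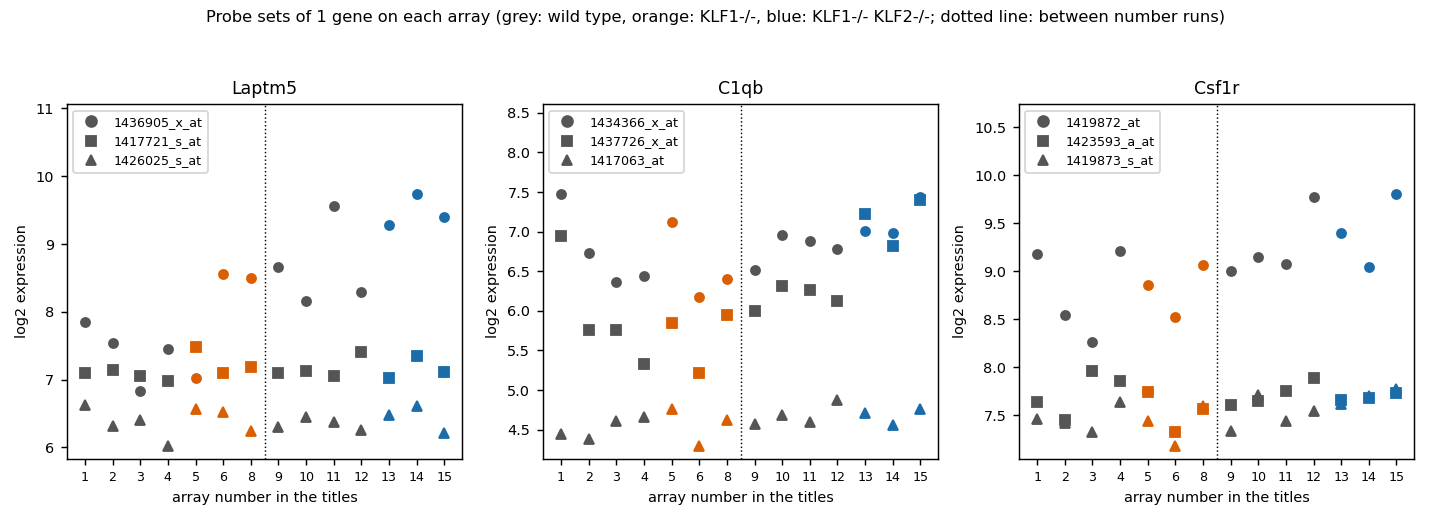
Log2 expression (vertical axis) of the probe sets of Laptm5, C1qb and Csf1r against the array number in the titles; each symbol is 1 probe set on 1 array, grey for wild type, orange for KLF1-/- and blue for arrays labelled KLF1-/- KLF2-/-, and the dotted line parts the number runs. Laptm5 1436905_x_at differs between wild type 1 to 4 (mean 7.42) and 9 to 12 (mean 8.67), while the other Laptm5 probe sets have wild-type means of 7.12 and 6.34.

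Laptm5, a lysosomal membrane protein of blood cells, gave the largest difference from wild type among the members on 1436905_x_at, and it also differed within wild type. The arrays labelled KLF1-/- KLF2-/- read 9.27, 9.73 and 9.39, the KLF1-/- arrays 7.02, 8.56 and 8.49, and wild type from 6.84 to 9.56 with a median of 8.00. Wild type 11, at 9.56, was above the lowest double-labelled array, and every wild-type array numbered 9 to 12 was above every one numbered 1 to 4. The log2 difference from wild type was 1.42 (SE 0.46, 95% interval 0.43 to 2.42, unadjusted p = 0.00848, limma adjusted p = 0.9999). It was 0.80 with the number run as a block. The difference within the arrays numbered 9 to 15 is the same by construction, because each mutant genotype lies in a single number run.

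Wild type 9 to 12 minus wild type 1 to 4 was 1.24 for this probe set (SE 0.37, unadjusted p = 0.00475, limma adjusted p = 0.386). In that comparison, which no genotype enters, 0 of 16 members were called (0% of all probe sets) and 2 of 16, Laptm5 1436905_x_at and C1qc, had an unadjusted p under 0.05 (7.92% of all). Against KLF1-/- the double-labelled arrays differed by 1.44 (SE 0.56, unadjusted p = 0.0222), and by 0.20 (SE 0.56) with the block. These groups share no number run, so the block takes out the run only through the wild-type arrays of each run. KLF1-/- differed from wild type by −0.02 (SE 0.46), by 0.60 with the block, and by −0.29 to 0.48 when KLF1-/- 6 or KLF1-/- 5 was left out. The remaining Laptm5 probe sets, 1417721_s_at and 1426025_s_at, had means of 7.12 ± 0.12 and 6.34 ± 0.17 in wild type, 7.25 ± 0.20 and 6.45 ± 0.17 in KLF1-/-, and 7.16 ± 0.17 and 6.43 ± 0.19 on the double-labelled arrays. Their differences from wild type there were 0.04 (95% interval −0.20 to 0.29) and 0.09 (95% interval −0.18 to 0.36), and their r with 1436905_x_at within genotypes was −0.12 and −0.01 over 14 arrays.

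The adaptors Tyrobp and Fcer1g were both at the upper end of their range on the arrays labelled KLF1-/- KLF2-/-. Tyrobp read 7.26, 7.59 and 7.28 there, 7.32, 6.85 and 7.04 in KLF1-/-, and 6.41 to 7.36 in wild type with a median of 6.92. All double-labelled arrays were above wild type 9 to 12 (6.89 to 7.07), while wild type 1, at 7.36, was above some of them. The log2 difference from wild type was 0.47 (SE 0.17, 95% interval 0.10 to 0.85, unadjusted p = 0.0174, limma adjusted p = 0.9999), or 0.43 with a block for the number run. Fcer1g read 7.66, 7.54 and 7.68 there, 7.25, 7.04 and 7.39 in KLF1-/-, and 6.996 to 7.77 in wild type with a median of 7.45. The mutant groups did not overlap on Fcer1g, and both overlapped wild type. The mutant groups differed by 0.40 (SE 0.16, unadjusted p = 0.0277, limma adjusted p = 1), and each differed from wild type by about as much in opposite directions, 0.21 and −0.20 (SE 0.14 for both). With the block the mutant groups differed by 0.27, and the differences from wild type were 0.14 and −0.13. The mutant groups lie in different number runs, and between the wild-type runs (9 to 12 minus 1 to 4) Fcer1g differed by 0.13.

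The 3 KLF1-/- arrays all lay below the lowest wild-type array on Cybb. It read 4.46, 4.43 and 4.56 in KLF1-/-, 4.61 to 4.80 in wild type with a median of 4.68, and 4.76, 4.62 and 4.61 on the arrays labelled KLF1-/- KLF2-/-. It was 1 of 16 members with this pattern, which 0.23% of all probe sets had. The log2 difference was −0.21 (SE 0.08, 95% interval −0.39 to −0.03, unadjusted p = 0.0282, limma adjusted p = 0.9998), and leaving out 1 array at a time it ran from −0.24 to −0.18. Cybb was among the dimmest member probe sets, where the authors' summarising method compresses differences. Its wild-type mean of 4.69 lay inside the range of the genes of other organs, 4.08 to 7.65. Whether its signal was above background was not tested.

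For Csf1r, the CSF1 receptor, no probe set had a 95% interval against wild type that left out 0. On 1419872_at the arrays labelled KLF1-/- KLF2-/- read 9.40, 9.05 and 9.80, the KLF1-/- arrays 8.85, 8.52 and 9.06, and wild type from 8.26 to 9.78 with a median of 9.11. The groups overlapped: the difference from wild type was 0.39 (95% interval −0.16 to 0.95) on the double-labelled arrays, or 0.17 with the block, and it was −0.21 (SE 0.26) in KLF1-/-. Between the mutant groups it was 0.60 (SE 0.31), or 0.15 with the block. On 1419873_s_at these differences were 0.21 and −0.08 (SE 0.11 for both), and on 1423593_a_at −0.03 and −0.18 (SE 0.12 for both). Between the mutant groups 1419873_s_at differed by 0.29 (SE 0.14), with every double-labelled array above every KLF1-/- array. Within genotypes 1419872_at and 1419873_s_at had r = 0.60 over 14 arrays.

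Spi1, the PU.1 gene, showed the least difference of the members on the arrays labelled KLF1-/- KLF2-/-. It read 6.36, 6.33 and 6.53 there, 6.36, 6.21 and 6.40 in KLF1-/-, and 5.91 to 6.73 in wild type with a median of 6.44. All mutant arrays were inside the wild-type range, with log2 differences of −0.00 (95% interval −0.31 to 0.30) and −0.08 (95% interval −0.39 to 0.22). Ptprc, the CD45 phosphatase found on nearly all white blood cells, read 6.83, 6.94 and 6.26 on the double-labelled arrays and 6.15, 6.93 and 6.06 in KLF1-/-, against 5.58 to 6.90 in wild type with a median of 6.34. The groups overlapped, and the differences from wild type were 0.37 and 0.07 (SE 0.26 for both).

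**Figure D3:**
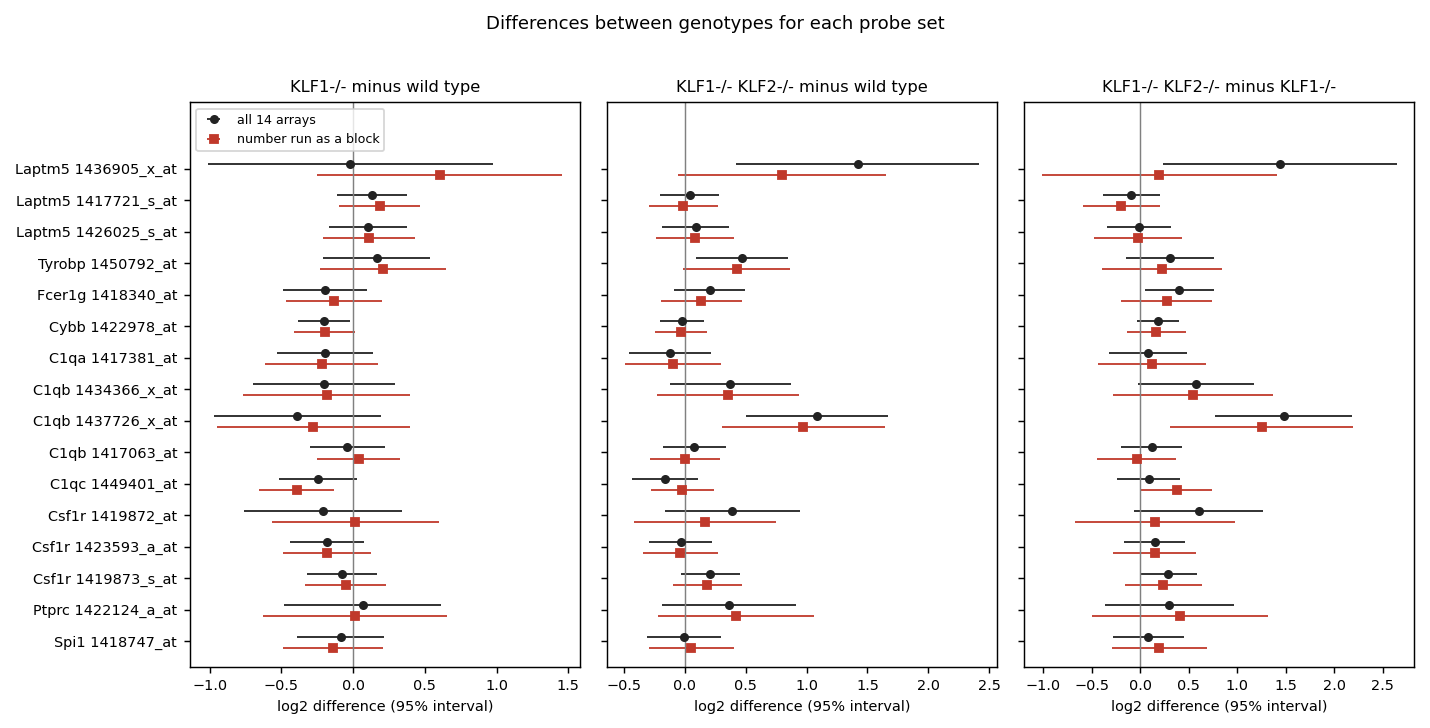
Log2 differences (horizontal axis, bars are 95% intervals) of the 16 member probe sets in 3 comparisons, from all 14 arrays (black circles) or with a block for the number run (red squares). For C1qb 1437726_x_at the interval of the double-labelled arrays against wild type is 0.50 to 1.67, and the Laptm5 1436905_x_at difference moves from 1.42 to 0.80 with the block.

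Counts of non-overlapping groups describe the same pattern. Between the mutant groups 5 of 16 members were higher on every array labelled KLF1-/- KLF2-/- than on every KLF1-/- array, which 1.87% of all probe sets were. They were C1qb 1437726_x_at, Laptm5 1436905_x_at, Fcer1g, Cybb and Csf1r 1419873_s_at. The mutant groups lie in different number runs, and the members were chosen with earlier results of these data known. These counts are therefore description only. Against all wild-type arrays 0 of 16 were higher on every double-labelled array (0.393% of all). Against wild type 9 to 12 there were 3 of 16, Tyrobp and both _x_at probe sets of C1qb (2.89% of all). In KLF1-/- against wild type 1 to 4, 2 of 16 were lower on every array, Cybb and C1qc (1.4% of all). Within wild type, 1 of 16 was higher on every array numbered 9 to 12 than on 1 to 4 (Laptm5 1436905_x_at, 1.12% of all) and 1 of 16 was lower (C1qc, 2.13% of all).

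Weighting the arrays by their estimated quality changed the call for 3 members on the arrays labelled KLF1-/- KLF2-/-. With limma's array weights C1qb 1437726_x_at had a difference from wild type of 1.05 (adjusted p = 0.00233), Tyrobp 0.37 (adjusted p = 0.0463) and Ptprc 0.53 (adjusted p = 0.0463), and 627 probe sets in all were called against 5 without weights. The weights spread from 0.233 for KLF1-/- 6 to 8.85 for KLF1-/- KLF2-/- 13. With weights held closer together by a strong prior, 0.624 to 1.43, 10 probe sets and 0 members were called, and the adjusted p of C1qb 1437726_x_at was 0.369. Over the alternatives without full array weights the limma adjusted p ran from 0.19 to 1 for C1qb 1437726_x_at, from 0.6252 to 1 for Tyrobp and from 0.913 to 1 for Ptprc.

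Across arrays the members did not form 1 pattern. After genotype means were removed, 111 pairs of probe sets of different members had a median r of 0.25 over 14 arrays, from −0.78 (C1qb 1417063_at with Ptprc) to 0.79. Some varied with the spread of values on the array. The correlation with the array's interquartile range, taken with genotype means left in, was below 0 for 13 of 16 probe sets. The share of all probe sets below 0 is not given here. The correlation was −0.85 for C1qa and −0.84 for C1qb 1417063_at and Csf1r 1423593_a_at. It was above 0 for 3, the highest Ptprc at 0.75. It was 0.28 for Laptm5 1436905_x_at, −0.18 for C1qb 1437726_x_at and −0.20 for Tyrobp. Its part in the differences was not tested.

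For each member the 3 genes with the most similar pattern within genotypes were found among 12392 others. For Csf1r 1419872_at they were Rabgap1l, C5ar1 (the receptor of the complement fragment C5a) and Strc (r = 0.93, 0.92 and 0.91). Spi1 was most like Ms4a4c, Epb41l3 and Ptprz1 (0.94, 0.93 and 0.93), Ptprc like Ankib1, Hs6st2 and Eogt (0.97, 0.97 and 0.96), and Laptm5 1436905_x_at like Knop1, Gpatch8 and Kbtbd2 (0.94, 0.92 and 0.90). C1qa was most like Evx2, Il9 and Pon1 (0.98, 0.95 and 0.95), C1qc like Nog, Cyct and Egr3 (0.93, 0.92 and 0.91), and C1qb like Grk5, Kmt2a and Drd3 (0.88, 0.88 and 0.87) on its brightest probe set. Tyrobp was most like Zfp518b, Gps2 and Irgm1 (0.89, 0.84 and 0.83), Fcer1g like Zfp85os, Pcdhb21 and Tshz2 (0.92, 0.92 and 0.92), and Cybb like Wfdc12, Spata4 and Cyp4a12a (0.82, 0.80 and 0.79). Each r is over 14 arrays that share their normalization, and is among the highest of 12392.

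The wider myeloid programme showed no called gene. Over 8 lists of related genes, 111 of 125 were measured, and 0 were called in any comparison of genotypes. At an unadjusted p under 0.05 there were 1 in KLF1-/-, 4 on the arrays labelled KLF1-/- KLF2-/- and 1 between the mutant groups, where the shares of all probe sets were 1.92%, 2.11% and 0.628%. In KLF1-/- 47 of 111 were above 0, with a median difference of −0.03, and on the double-labelled arrays 68 of 111, with a median of 0.04. Of all genes, 52.1% were above 0 in each of these comparisons, with medians of 0.01. Between the mutant groups 79 of 111 were above 0, with a median of 0.08, against 50.1% of all genes, and of the genes of other organs 10 of 13 were above 0 there, with a median of 0.05.

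Among genes of Fc receptor and related signalling, activating and inhibitory, 9 of 19 were above 0 in KLF1-/- (median −0.01). On the arrays labelled KLF1-/- KLF2-/- 13 of 19 were (median 0.07). Fcgr2b, the inhibitory Fc receptor, differed by −0.05 and 0.07, Plcg2, a phospholipase, by 0.02 and 0.22, and Ptpn6, the phosphatase SHP-1, by 0.05 and 0.10. Of the other NADPH oxidase genes, 2 of 7 and 3 of 7 were above 0 (medians −0.03 and −0.01), with Cyba, the partner of Cybb in the membrane, at −0.01 and −0.07 and the GTPases Rac1 at 0.17 and 0.31 and Rap1a at −0.07 and −0.02. With a block for the number run Cyba was at −0.40 and 0.32. Of complement genes, 5 of 12 and 6 of 12 were above 0 (medians −0.04 and 0.01), with the protease C2 at 0.02 and −0.09, C5ar1 at −0.16 and 0.02 and Cd93 at 0.20 and 0.23. None of these passed the test.

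Of genes around CSF1R and PU.1, 9 of 16 were above 0 in KLF1-/- (median 0.02) and 13 of 16 on the arrays labelled KLF1-/- KLF2-/- (median 0.07). The ligand Csf1 differed by 0.01 and −0.02, and the transcription factors Cebpb by 0.14 and 0.06 and Runx1 by −0.07 and 0.00. With the block Cebpb was at −0.20 and 0.39 and Runx1 at 0.11 and −0.17. Of other macrophage markers, 8 of 20 and 10 of 20 were above 0 (medians −0.03 and −0.00). Adgre1, a surface receptor used to mark mouse macrophages, had a wild-type mean of 7.96 ± 0.15 and differed by −0.03 (SE 0.15) and −0.07 (SE 0.15). Mrc1, the mannose receptor, differed by 0.14 (SE 0.27) and 0.46 (SE 0.27), and the protease Ctsb, found in most cells, by −0.03 and −0.23.

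Granulocyte and mast cell genes had 3 of 14 and 8 of 14 above 0 (medians −0.10 and 0.06), with the granule proteins Prtn3 at 0.00 and 0.37, Ctsg at −0.11 and −0.04 and Camp at −0.20 and −0.30. Pan-leukocyte genes had 6 of 14 and 7 of 14 (medians −0.04 and 0.01). Arhgdib differed by 0.47 and 0.79 (SE 0.23 for both, limma adjusted p = 0.977 for the second), the actin-bundling Lcp1 by 0.27 and 0.35 and the selectin ligand Selplg by −0.10 and −0.08. Lysosome genes had 5 of 9 and 8 of 9 above 0 (medians 0.08 and 0.18), with Lamp2 at 0.14 and −0.01, Ctsl at 0.29 and 0.19 and Npc2 at −0.01 and 0.09. With the block Lamp2 was at −0.30 and 0.43 and Npc2 at −0.21 and 0.28, and within wild type Lamp2 was lower on numbers 9 to 12 by a log2 difference of −0.89.

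**Figure D4:**
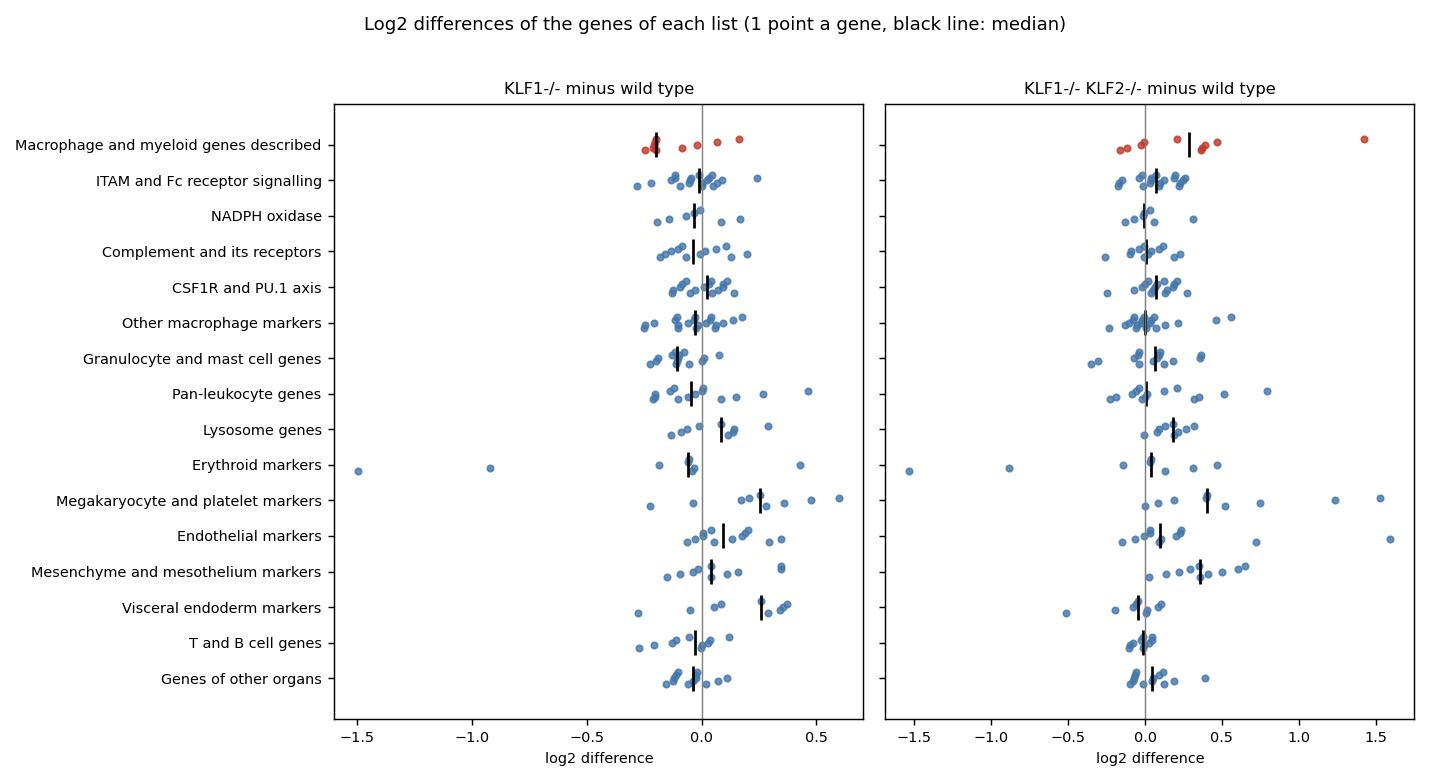
Log2 difference from wild type (horizontal axis) of the genes measured in each list, for KLF1-/- (left) and the arrays labelled KLF1-/- KLF2-/- (right); each point is 1 gene and the black line is the list's median. The 10 members (red), by their brightest probe set, have medians of −0.20 and 0.29, the other myeloid lists lie between −0.10 and 0.18, and megakaryocyte markers at 0.25 and 0.40.

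Markers of some other yolk sac cells were also higher in median on the arrays labelled KLF1-/- KLF2-/-. Megakaryocyte and platelet markers had 9 of 9 measured genes above 0 (median 0.40). Their mean log2 level per array ran from 6.71 to 7.08 in wild type, 7.13 to 7.26 in KLF1-/- and 7.32 to 7.65 on the double-labelled arrays. Mesenchyme markers had 10 of 10 above 0 (median 0.36), with per-array means of 9.77 to 10.72, 9.97 to 10.81 and 10.38 to 10.70. Endothelial markers had 9 of 12 (median 0.10) and visceral endoderm markers 4 of 9 (median −0.05). The visceral endoderm direction turned with a block for the number run, to 9 of 9 above 0 (median 0.21), and between the wild-type runs (9 to 12 minus 1 to 4) 0 of 9 were above 0 (median −0.43). No gene of these lists was called, and their part in the members' differences was not tested. T and B cell genes had 3 of 10 above 0 (median −0.01), and genes of other organs 7 of 13 (median 0.04). The members' own mean level per array, one probe set per gene, ran from 6.44 to 6.94 in wild type, 6.52 to 6.66 in KLF1-/- and 6.95 to 7.04 on the double-labelled arrays. The lowest double-labelled mean, 6.946, was barely above the highest wild-type mean, 6.936. These means include Laptm5 1436905_x_at, which differed from wild type by 1.42 and between the wild-type runs by 1.24. The other Laptm5 probe sets, which do not enter, differed from wild type by 0.04 and 0.09.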

How the data were processed

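Per the labels' protocols, erythroid cells were laser-captured from yolk sac cryosections, and a small amount of total RNA was amplified from the poly(A) tail before hybridisation to Affymetrix arrays, which favours 3′ ends. The deposited values are log2 expression per probe set. The tools listed in the submitters' processing notes are GCOS, RMA, affy and limma, without versions; RMA normalizes between arrays and compresses weak signals. The deposited log2 values were used without further scaling or filter, on 14 arrays and 22626 probe sets (64 controls left out). Of these, 20380 had 1 gene, 691 several and 1555 none in the platform annotation; all 10 member gene IDs were found in the RefSeq table of GRCm38.p6.

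Groups came from the sample titles. A mean per genotype was fitted by lmFit and eBayes of limma 3.58.1 under R 4.3.3, two-sided, with Benjamini-Hochberg adjustment over all probe sets; the fit was tested on simulated data. Other tables used Python 3.11.15 and pandas 2.3.3. Pathway genes are each represented by the probe set with the highest mean. Named genes are the members, the 3 genes of each other list with the highest wild-type mean, and the 3 genes most correlated with each member's brightest probe set. The members and lists were chosen with earlier results of these data known. Alternatives were the number run as a block or alone, quantile normalization, brighter probe sets, 1 probe set per gene, trend and robust eBayes, array weights, a principal component, and leaving out each array. No array was a copy of another. The number of arrays limits the precision.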

Additional observations from a re-analysis of the deposited data

Results flagged for a closer look

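Laptm5 1417721_s_at read 7.40 on wild type 12, apart from the other 7 wild-type arrays, which ranged from 6.98 to 7.15 on the log2 scale. The gap was 0.606 of the group's range, above Dixon's 95% critical value for 8 arrays. Chance marks about 1 in 20 groups, and 1 of the 16 member probe sets was marked in wild type; groups of 3 were not tested.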

How the results depend on the processing

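Member probe sets called stayed at 0 of 16 in every comparison and alternative run except array weights, which called 3 for the arrays labelled KLF1-/- KLF2-/- against wild type. The members' median difference kept its sign in every alternative run, but its size varied: from −0.20 to −0.07 for KLF1-/-, with −0.07 without KLF1-/- 6; from 0.08 to 0.29 for the arrays labelled KLF1-/- KLF2-/-, with 0.29 for brighter probe sets or 1 probe set per gene; and from 0.15 to 0.36 between the mutant groups. Counts over all probe sets moved more. For KLF1-/- against wild type, 6 became 2 with the number run as a block, 16 with array weights, 10 with the first principal component as a covariate and 1 within the same number run, and 2 to 7 leaving out 1 array. For the arrays labelled KLF1-/- KLF2-/- against wild type, 5 became 9 after quantile normalization, 8 with brighter probe sets only, 8 with 1 probe set per gene, 10 with trend and robust eBayes, 627 with array weights, 10 with weights under a strong prior (chosen after seeing the data), 25 with the principal component, and 1 to 7 leaving out 1 array. Between the mutant groups, 0 became 1 after quantile normalization, with brighter probe sets or with 1 probe set per gene, 4 with array weights, and 0 to 1 leaving out 1 array. For wild type 9 to 12 against 1 to 4, 0 became 295 with the principal component and 0 to 143 leaving out 1 array, the highest without wild type 4. The causes were not tested. Direction held in every alternative for 10, 13 and 10 of 16 member probe sets in the 3 genotype comparisons. No paired analysis was possible because the groups share no replicate numbers.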
